A study of Mus musculus with 8 samples.

Results

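Guanylate binding proteins (GBPs) and immunity-related GTPases (IRGs) were examined in sorted mouse blood monocytes. The set names 10 genes, Gbp2, Gbp3, Gbp5, Gbp6, Gbp7, Gbp8, Gbp9, Irgm1, Igtp and Iigp1, out of 18193 genes on the array. Each gene was read from a probe set annotated to that gene alone, selected on the highest mean over the 8 arrays. Such a probe set was listed for 8 of the 10 genes; none was listed for Gbp5 or Gbp9, which were not analysed here. The family was chosen because Gbp8 had stood out with beads in Gr1lo cells of these same arrays. All values of that contrast are therefore given as a description, without a p-value. So is every other contrast of Gbp8 that uses Gr1lo arrays.

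RNA came from blood monocytes of male C57BL/6 mice that had received 1 µm fluorescent latex beads intravenously. Classical (Gr1hi) and nonclassical (Gr1lo) monocytes were each sorted 4 days later into cells with and without beads, which gave 4 groups of 2 biological replicates, all of them from mice given beads. The sources differ on clodronate liposomes, which deplete phagocytes: in the design text they precede the beads by 3 days for any subset, and in the treatment protocol only Gr1hi labelling used them. If the protocol holds, pretreatment and subset cannot be told apart. How many mice or cells went into an array is not stated in the labels.

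GBPs and IRGs are GTPases that interferons induce strongly in macrophages and monocytes. The GBPs are large proteins related to dynamin that assemble on bacteria and on the vacuoles of intracellular microbes, where they help to break the vacuole open and to activate inflammasomes. Among the IRGs, Irgm1 and Igtp are regulators that sit on the cell's own membranes, and Iigp1 is an effector that attacks vacuole membranes. The mouse GBP genes lie in clusters, with Gbp2, Gbp3, Gbp5 and Gbp7 on chromosome 3 and Gbp6, Gbp8 and Gbp9 on chromosome 5. Irgm1 and Igtp lie on chromosome 11.

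The bases just before the start of the 5 members measured above background on every array are shown because interferon response elements are what this family is known for. Sequences are from RefSeq (GRCm38.p6), run 5′ to 3′ on the gene's strand and end at the base before a start listed for the gene in the promoter table. For Gbp3 that start lies inside the annotated gene, so the last bases of its window do too. Capitals mark the core of the interferon-stimulated response element, searched as GAAANNGAA on both strands.
Gbp2 (chr3:142620553-142620662, plus strand): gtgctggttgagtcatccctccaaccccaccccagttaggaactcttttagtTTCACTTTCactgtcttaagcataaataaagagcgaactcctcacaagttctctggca
Gbp3 (chr3:142559934-142560043, plus strand): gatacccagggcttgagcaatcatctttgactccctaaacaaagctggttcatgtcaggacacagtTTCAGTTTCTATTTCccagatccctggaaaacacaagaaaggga
Gbp7 (chr3:142530226-142530335, plus strand): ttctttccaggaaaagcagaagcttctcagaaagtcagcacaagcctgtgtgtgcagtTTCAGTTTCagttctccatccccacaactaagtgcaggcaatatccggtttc
Irgm1 (chr11:48871421-48871530, minus strand): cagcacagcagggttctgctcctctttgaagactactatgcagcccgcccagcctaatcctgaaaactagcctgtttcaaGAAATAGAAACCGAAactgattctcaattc
Igtp (chr11:58199446-58199555, plus strand): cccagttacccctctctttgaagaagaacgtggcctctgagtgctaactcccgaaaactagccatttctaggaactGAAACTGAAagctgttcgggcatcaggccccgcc
All 5 windows hold the motif, which begins 34 bases before the start of Igtp and 58 bases before that of Gbp2. In Gbp3 and Irgm1 it occurs 2 times with an overlap. A second annotated start of Gbp3 has no match in the 250 bases before it. Of the 10 genes, 6 had a promoter entry (Gbp5 is the sixth), and all 6 held the motif within 250 bases of a start, against 7.13% of 32851 promoter windows of that length. The gamma-activated site TTCNNNGAA was found in 3 of these 6 (Gbp5, Gbp7 and Igtp), against 7.02% of all windows, with no overlap between the motifs. Gbp6, Gbp8, Gbp9 and Iigp1 had no entry. A match describes letters in a window, not a site in use.

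The arrays were alike in scale, with medians of 6.12 to 6.19 log2 units and correlations of at least 0.9935 within a group. A background level of 6.98 log2 units was set from genes not expected in blood cells, since the files give no detection calls. Markers of classical monocytes averaged 12.85 and 12.88 on the Gr1hi arrays without beads and 12.54 and 12.55 with beads. They averaged 10.96 and 10.12 on the Gr1lo arrays without beads and 8.26 and 8.12 with beads, while nonclassical markers averaged 12.02 to 12.31 on the Gr1lo arrays and 8.70 to 9.30 on the Gr1hi arrays. B, T and NK cell lists averaged below the background level on every array, though single markers exceeded it. The B cell marker Ighm read 11.09 to 12.32 over the arrays, and Cd79b 8.47 and 8.16 in Gr1lo cells with beads. Cd3e, a T cell marker, and Flt3, a dendritic cell marker, were above it on every array. Further NK and dendritic cell markers exceeded it in Gr1lo cells without beads. The NK markers Klrk1 and Gzma also did so in Gr1hi cells without beads, and Gzma in Gr1lo cells with beads. The T cell marker Cd28 exceeded it in Gr1hi cells with beads, and Cd8a in both subsets with beads. In bulk RNA, a change in the share of a cell type and a change in RNA per cell cannot be told apart.

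Which of these genes were measurable above background? Gbp2, Gbp3, Gbp7, Irgm1 and Igtp were above it on all 8 arrays, at 8.61 to 10.23 log2 units. Gbp6 lay between 6.22 and 6.95 and Iigp1 between 5.97 and 6.42, below it on every array. Gbp8 was above it on the 2 Gr1lo arrays with beads and below it on the other 6. All Gbp8 values come from 1 probe set. The platform lists 1 further probe set that Gbp8 shares with another symbol, and it was not used. Values of Gbp6, Iigp1 and, outside Gr1lo cells with beads, of Gbp8 are therefore dim signals. A log2 difference between groups that both lie below background is a difference between dim signals as read and gives no fold of expression.

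**Figure D1:**
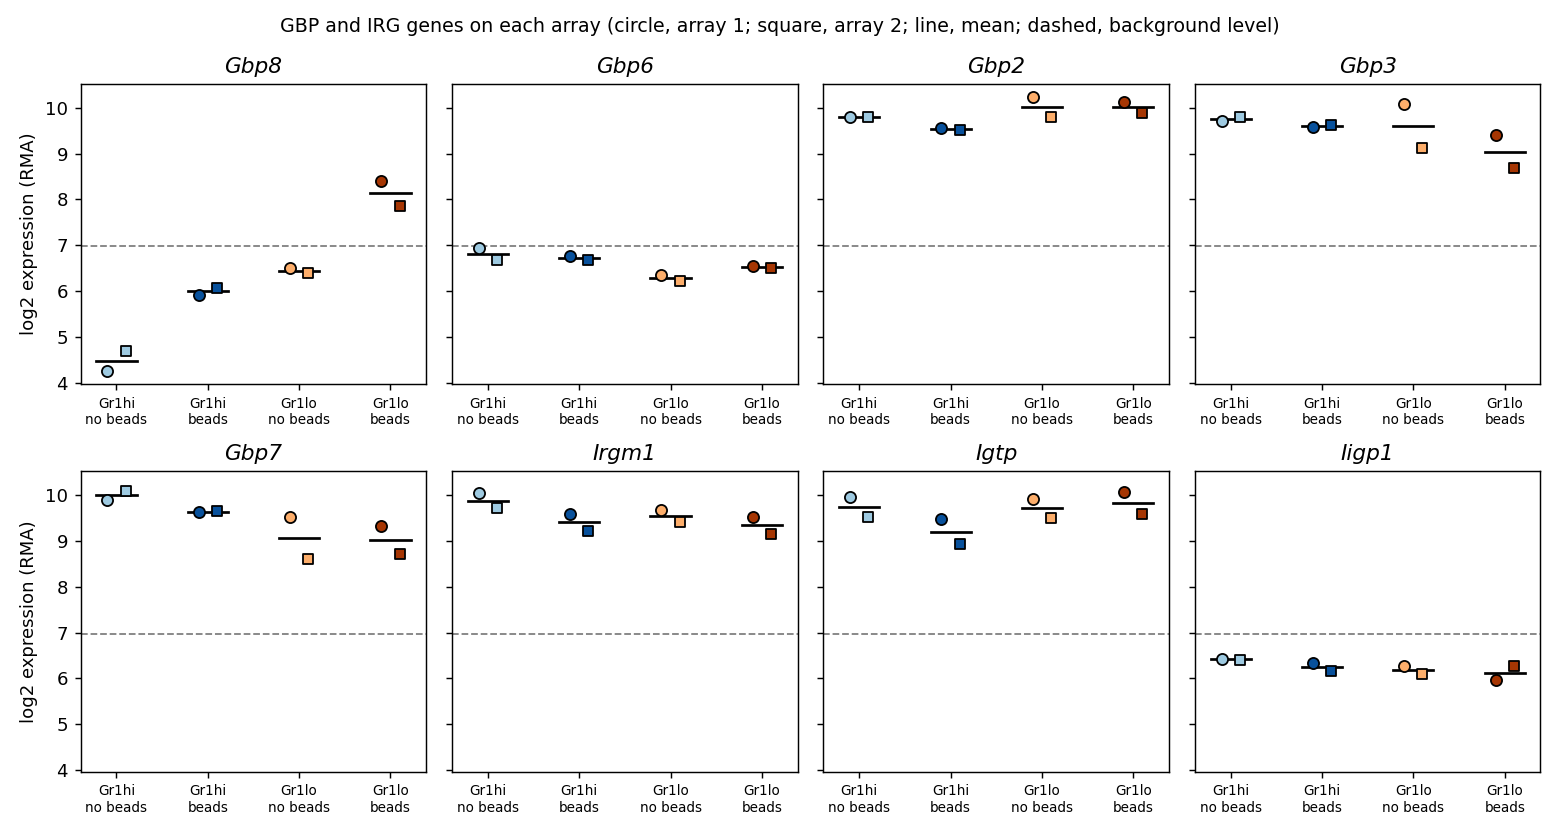
Log2 expression of the 8 measured genes (vertical axis) in the 4 groups (horizontal axis). Circles are array 1, squares array 2, short lines the group mean, and the dashed line the background level of 6.98; Gbp8 steps up from 4.48 in Gr1hi cells without beads to 8.13 in Gr1lo cells with beads, while the other genes stay within narrower ranges.

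Did Gbp8 change with beads in Gr1hi monocytes? Gbp8, a less studied member of the chromosome 5 cluster, read 4.26 and 4.70 on the Gr1hi arrays without beads and 5.92 and 6.07 on those with beads. Both arrays with beads were higher than both without, and all 4 were below background. The group means were 4.48 ± 0.31 (SD, n = 2) without and 5.99 ± 0.10 (SD, n = 2) with beads. The dim signals differed by 1.51 ± 0.19 log2 units (SE), which passed the threshold (limma, Benjamini-Hochberg adjusted p = 0.0289), with no measured size of expression behind it. The call was lost without any 1 of the 4 Gr1hi arrays, with differences of 1.29 to 1.73 and limma adjusted p = 0.110 to 0.225, and Gbp8 was not tested when dim genes were left out.

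Of the 8 measured genes, 1 was called with beads in Gr1hi cells, Gbp8, where 0.247% of all genes were. No test between genes was made. Each of the other 7 had a negative difference, from -0.53 for Igtp to -0.10 for Gbp6, with limma adjusted p between 0.423 and 0.924. Their median was -0.26 and that of all genes -0.02. Of these 7, Gbp6 and Iigp1 were below background, and the dimmer probe set of Iigp1 differed by 0.07. At an unadjusted p under 0.05 limma gave 2 of the 8, Gbp8 and Irgm1, and 9.93% of all genes.

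Among the regulators, Irgm1 read 10.04 and 9.72 without beads and 9.58 and 9.22 with beads in Gr1hi cells. The arrays did not overlap, and the difference was -0.48 ± 0.18 (SE; limma adjusted p = 0.423). Igtp read 9.96 and 9.52 without and 9.47 and 8.94 with beads, a difference of -0.53 ± 0.24 (SE; limma adjusted p = 0.524). For both genes the lower array without beads was close to the higher array with beads.

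Among the GBPs of chromosome 3, Gbp2, which is recruited to parasite vacuoles, read 9.79 and 9.80 without beads and 9.55 and 9.51 with beads. Gbp7, linked to assembly of the phagocyte oxidase, read 9.90 and 10.09 without and 9.64 and 9.65 with beads. Gbp3 read 9.70 and 9.81 without and 9.58 and 9.63 with beads. All 3 were lower with beads on every array, by 0.26, 0.36 and 0.15 log2 units, and none was called. In all, 6 of the 8 genes had every array with beads below every array without, as did 25.0% of all genes.

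What did the genes read with beads in Gr1lo monocytes? Gbp8 read 6.50 and 6.39 without beads and 8.41 and 7.85 with beads, with means of 6.44 ± 0.08 (SD, n = 2) and 8.13 ± 0.39 (SD, n = 2). The groups did not overlap, and the difference was 1.69 log2 units. Because the lower group lay below background, the fold was taken from the group mean against the background level. By group mean, Gr1lo cells with beads had at least 2.22-fold more Gbp8 than those without. The array at 7.85 lay closer to the background level than the group mean did.

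The other 7 genes differed in Gr1lo cells by -0.56 (Gbp3) to 0.25 (Gbp6). Gbp2 read 10.23 and 9.80 without beads and 10.13 and 9.89 with beads. Gbp7 read 9.53 and 8.61 without and 9.33 and 8.71 with beads, a difference of -0.05. Its dimmer probe set, above background on 4 arrays, differed by 0.28. Irgm1 read 9.68 and 9.42 without and 9.52 and 9.16 with beads, and Igtp 9.93 and 9.51 without and 10.07 and 9.58 with beads. In these 4 genes the groups overlapped. Gbp6 was higher with beads on both arrays (6.55 and 6.50 against 6.35 and 6.22), below background throughout, and its dimmer probe set differed by 0.58. Gbp6, the other measured member of the chromosome 5 cluster, thus had the sign of Gbp8 in Gr1lo cells and a difference of -0.10 in Gr1hi cells.

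**Figure D2:**
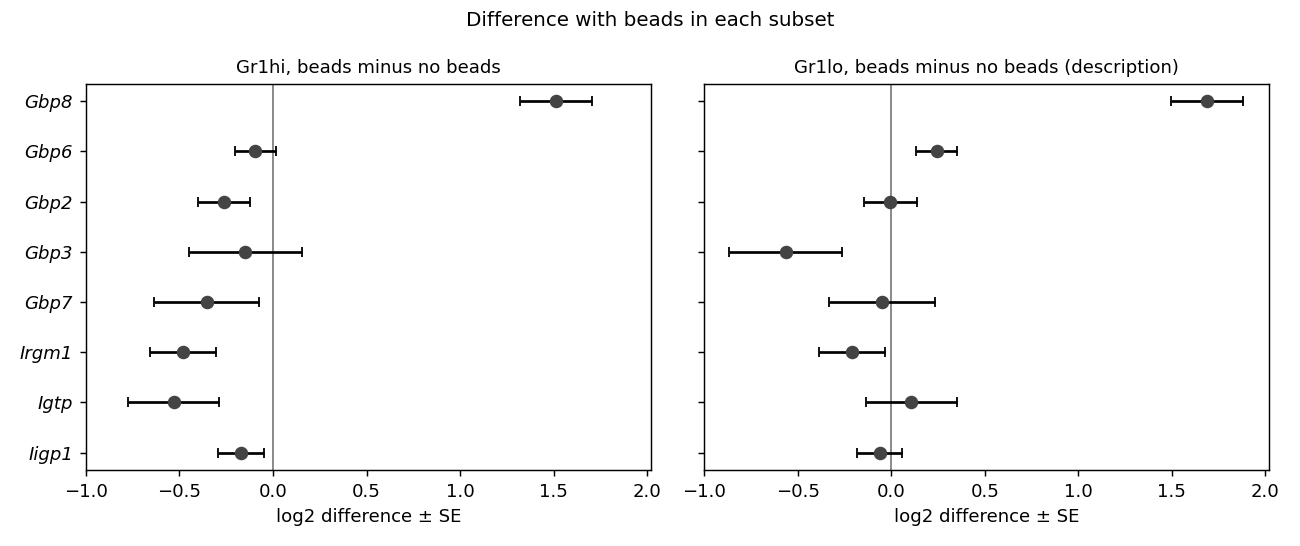
Log2 difference, beads minus no beads (horizontal axis), for each gene (vertical axis) in Gr1hi cells (left) and Gr1lo cells (right, a description). Points are differences of group means of 2 arrays and bars their moderated standard errors; Gbp8 lies at 1.51 and 1.69, the other genes between -0.56 and 0.25.

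The bead differences of the 2 subsets were compared by an interaction term. For Gbp8 the difference between them was 0.18 log2 units, given as a description. For the other 7 genes it ran from -0.41 (Gbp3) to 0.64 (Igtp), with limma adjusted p of 0.638 to 0.894. Of these 7 genes 0 were called, and 0 had an unadjusted p under 0.05 in limma; 0.044% of all genes were called. Igtp was lower with beads in Gr1hi cells and, by group mean, slightly higher in Gr1lo cells, and this contrast did not pass the test.

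Array controls and cell type markers also differed with beads. The poly-A controls, bacterial RNAs added at labelling, read 7.75 and 8.11 in Gr1hi cells without beads and 9.45 and 9.86 with beads, and 9.27 and 8.68 in Gr1lo cells without and 10.44 and 10.45 with beads. Hybridization controls read 11.07 and 11.18 in Gr1hi cells without and 11.33 and 11.32 with beads, and 10.78 and 11.10 in Gr1lo cells without and 11.84 and 12.18 with beads. Ribosomal RNA probe sets read 8.58 and 10.13 in Gr1lo cells without and 10.07 and 10.64 with beads, and 9.58 and 10.16 against 9.95 and 9.99 in Gr1hi cells. Tissue macrophage markers averaged 7.22 and 7.41 in Gr1hi cells without and 8.01 and 8.11 with beads, with 6 and 7 of 11 markers above background. In Gr1lo cells they averaged 9.02 and 7.19 without and 8.58 and 8.26 with beads. Single markers went both ways there. Slc40a1 (2.98) and Spic (1.08) were higher with beads, as were C1qa, C1qb, C1qc, Adgre1, Mertk and Vcam1. Cd163 (-2.16), Cd5l (-1.45) and Timd4 (-1.19) were lower. Without beads, those lower markers read 2.63, 4.80 and 2.09 higher on array 1 than on array 2. Nonclassical markers averaged 8.70 and 8.76 in Gr1hi cells without and 9.22 and 9.30 with beads, and neutrophil markers 8.98 and 8.71 without and 8.36 and 8.03 with beads. In Gr1lo cells, Cd209a, a dendritic cell marker, read 10.07 and 9.73 without and 6.84 and 6.69 with beads, and the NK cell marker Klrd1 7.55 and 7.80 without and 5.26 and 5.28 with beads. Their lists did not move as 1. Of the other dendritic markers, Flt3, Kmo and Itgae were lower with beads, and Zbtb46, Xcr1 and Siglech higher by 0.14 or less. Of the other NK markers, Klrk1 and Prf1 were lower, and Ncr1, Gzma, Gzmb and Eomes higher by 0.16 or less. In Gr1hi cells the basophil and mast cell markers Mcpt8, Ms4a2 and Cpa3, all below background, differed with beads by -1.13, -0.95 and -0.76. On the same list, Fcer1a (-0.80) and Gata2 (-0.39) were also lower, and Prg2, Epx and Il5ra differed by 0.09 or less. The part of these shifts in the Gbp8 difference was not tested.

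How did the subsets differ without beads? The Gbp8 signal was higher in Gr1lo cells, at 6.44 against 4.48, both below background. This difference between dim signals was 1.96 log2 units, given as a description. Gbp7 was lower in Gr1lo cells, where it read 9.53 and 8.61, against 9.90 and 10.09 in Gr1hi cells, a difference of -0.93 ± 0.28 (SE; limma adjusted p = 0.0449). Gbp6 was lower by 0.53 log2 units below background (limma adjusted p = 0.00891). Of the 7 genes tested here, 2 were called, both lower, against 23.6% of all genes. The call of Gbp7 was lost in 8 of 18 alternatives, among them median centring of the arrays (limma adjusted p = 0.0537) and leaving out any 1 of the 4 Gr1hi arrays. Its difference was -0.47, not called, without Gr1lo array 2 and -1.39 without Gr1lo array 1. The call of Gbp6 was lost without Gr1hi array 1 (limma adjusted p = 0.0623).

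The remaining genes did not separate the subsets beyond the threshold without beads. Gbp2 differed by 0.22, Gbp3 by -0.15, Igtp by -0.02, Iigp1 by -0.23 and Irgm1 by -0.33. For Gbp3 the Gr1lo arrays, 10.08 and 9.13, lay on either side of both Gr1hi arrays, 9.70 and 9.81.

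How did the subsets differ with beads? Gbp2 was higher in Gr1lo cells, at 10.01 ± 0.17 (SD, n = 2) against 9.53 ± 0.03 (SD, n = 2), a difference of 0.48 ± 0.14 (SE; limma adjusted p = 0.0345). Its other probe set differed by 0.50. Igtp differed by 0.62 ± 0.24 (SE; limma adjusted p = 0.0981), with both Gr1lo arrays (10.07 and 9.58) above both Gr1hi arrays (9.47 and 8.94). Gbp8 was 2.14 log2 units higher in Gr1lo cells, as a description, and by group mean at least 2.22-fold higher against the background level. Of the 7 genes tested here, 1 was called, Gbp2, against 26.5% of all genes. The call of Gbp2 was lost without any 1 of the 4 Gr1hi arrays or Gr1lo array 1 with beads, with limma adjusted p = 0.0557 to 0.185.

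Gbp3 and Gbp7 were on the lower side in Gr1lo cells with beads. Gbp3 read 9.41 and 8.68 there against 9.58 and 9.63 in Gr1hi cells, a difference of -0.56 (limma adjusted p = 0.224). Gbp7 read 9.33 and 8.71 against 9.64 and 9.65, a difference of -0.62 (limma adjusted p = 0.152). Gbp7's dimmer probe set differed by -0.22. These comparisons share arrays with the bead comparisons.

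**Figure D3:**
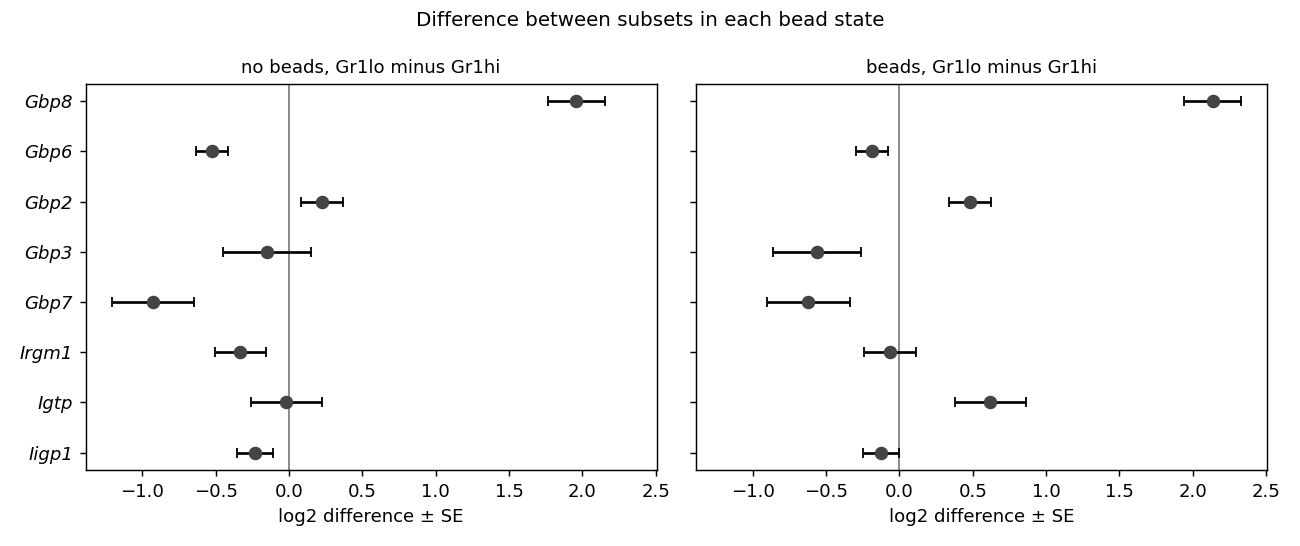
Log2 difference, Gr1lo minus Gr1hi (horizontal axis), for each gene (vertical axis) without beads (left) and with beads (right). Points are differences of group means of 2 arrays and bars their moderated standard errors; Gbp8 lies at 1.96 and 2.14, Gbp7 at -0.93 and -0.62, and Gbp2 at 0.22 and 0.48.

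The order of the Gbp8 group means was Gr1hi without beads (4.48), Gr1hi with beads (5.99), Gr1lo without beads (6.44) and Gr1lo with beads (8.13). The middle neighbours did not overlap between their arrays (5.92 and 6.07 against 6.50 and 6.39), and this step was not tested. The first 3 of these means lie below background. Genes whose values followed Gbp8 most closely over the 8 arrays were Calhm6, of the calcium homeostasis modulator family (r = 0.987), Nr1h3, the oxysterol receptor LXR alpha (0.979), Acp5, a lysosomal acid phosphatase (0.973), Map3k8, a kinase of inflammatory signalling (0.965), and Igf2r, the mannose 6-phosphate receptor (0.948). They were drawn from 1205 genes that exceeded background and spanned at least 1 log2 unit. Calhm6 went from 9.06 in Gr1hi cells without beads through 9.58 and 9.74 to 10.21 in Gr1lo cells with beads, above background throughout. With the other members, Gbp8 had r of 0.46 (Gbp2), 0.18 (Igtp), -0.54 (Gbp6), -0.55 (Gbp3), -0.67 (Irgm1), -0.68 (Gbp7) and -0.76 (Iigp1). The 8 points are 4 groups of 2, so these values mostly reflect group differences. No background filter was applied to the members. Gbp6 and Iigp1 were below background on every array and Gbp8 above it on 2, so their r values rest largely on dim signals.

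The arrays of a group differed for the GBPs of chromosome 3 in Gr1lo cells. Gbp3 read 10.08 on array 1 and 9.13 on array 2 without beads, and 9.41 and 8.68 with beads. In Gr1hi cells its arrays were within 0.11 log2 units of each other. Gbp7 read 0.92 and 0.61 log2 units higher on array 1 in the Gr1lo groups, and in Gr1hi cells its arrays were within 0.19. Gbp2b, a GBP between Gbp3 and Gbp2 on the chromosome that is no member of the set, read 8.75 on Gr1lo array 1 without beads and 5.58 to 5.99 on the other 7 arrays. On that array the tissue macrophage list averaged 9.02 against 7.19 on array 2 of its group; whether the readings are connected was not tested.

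Irgm1 and Igtp showed a different pattern between arrays. Irgm1 was 0.26 to 0.36 log2 units higher on array 1 than on array 2 in each of the 4 groups, and Igtp 0.42 to 0.53. Irgm2, the third regulatory IRG, was higher on array 1 in each group too, by 0.21 to 0.41, as was Ifi47, another IRG, by 0.21 to 0.68. For Igtp these steps were about as large as its difference with beads in Gr1hi cells. They had the same sign in each group, so they do not by themselves produce a difference between groups. The main fit has no term for the array number and counts these steps as spread within a group. With such a term in the fit, Irgm1 and Igtp were still not called with beads in Gr1hi cells. Set side by side by array number, Igtp in Gr1hi cells was lower with beads on both arrays (9.47 against 9.96 and 8.94 against 9.52). The labels do not say what an array number shares.

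**Figure D4:**
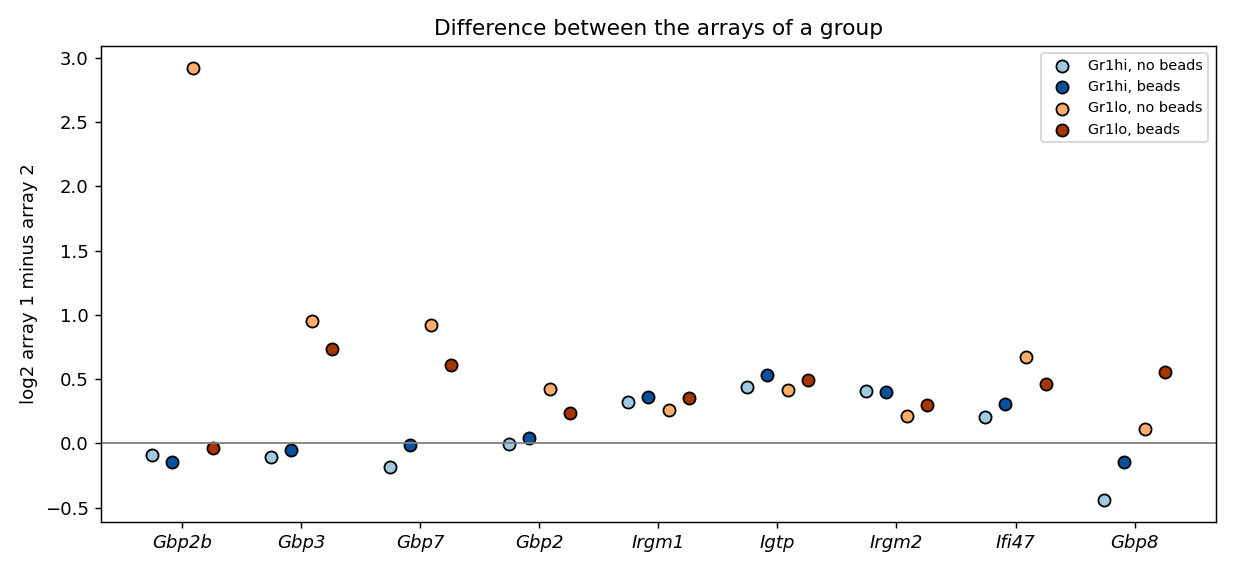
Log2 difference between array 1 and array 2 (vertical axis) for 9 GBP and IRG genes (horizontal axis), 1 point per group. Gbp3 and Gbp7 differ between arrays in both Gr1lo groups but not in the Gr1hi groups, Gbp2b in 1 group by 2.92, and Irgm1, Igtp, Irgm2 and Ifi47 lie above 0 in all 4 groups.

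Other genes of both families and of interferon signalling were taken from gene lists. Of 5 further GBPs and IRGs measured, 0 were called with beads in Gr1hi cells (1 at an unadjusted p under 0.05 in limma, Irgm2 at -0.56). In Gr1lo against Gr1hi cells, Ifi47 was lower without beads (-1.06 ± 0.23 SE; limma adjusted p = 0.0115) and Irgm2 higher with beads (1.03 ± 0.18 SE; limma adjusted p = 0.00328). Gm4951, below background, was also called higher with beads (0.42).

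Upstream, 0 of 8 interferon ligand, receptor and kinase genes were called with beads in Gr1hi cells (0 at an unadjusted p under 0.05 in limma). Ifng, the ligand that induces GBPs most strongly, was below background on all arrays, at 3.20 to 3.94. In Gr1lo against Gr1hi cells without beads, 2 were higher, the receptor chain Ifngr1 (0.78 ± 0.15 SE) and the kinase Jak2 (0.47 ± 0.08 SE), and 1 lower, the kinase Tyk2 (-0.47 ± 0.11 SE). With beads 3 were higher and 0 lower, again Ifngr1 and Jak2, with Ifnar2 (0.38 ± 0.08 SE). Of all genes, 23.6% were called between subsets without and 26.5% with beads.

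Among 13 interferon transcription factors and inhibitors, 0 were called with beads in Gr1hi cells (3 at an unadjusted p under 0.05 in limma). Irf1, which activates GBP promoters, read 10.53 and 10.42 without and 10.20 and 10.07 with beads in Gr1hi cells, and 10.98 and 11.03 without and 11.29 and 11.18 with beads in Gr1lo cells. Irf1 was higher in Gr1lo cells by 0.53 ± 0.09 (SE; limma adjusted p = 0.00371) without beads and 1.10 ± 0.09 (SE; limma adjusted p = 6.74e-05) with beads. In the subset comparisons, 5 of the 13 were higher and 3 lower without beads, and 5 higher and 2 lower with beads. Of all genes, 23.6% were called without and 26.5% with beads. The inhibitor Socs3 was among the higher (1.29 and 1.34) and the deconjugating enzyme Usp18 among the lower (-1.88 and -1.36).

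Targets of interferon gamma and of type I interferon were compared between the subsets. Of 24 interferon gamma targets, 7 were higher and 2 lower in Gr1lo cells without beads (10 and 3 with beads), with the smallest p for the MHC class II genes H2-Aa (3.34 ± 0.12 SE) and H2-Ab1 (3.80 ± 0.21 SE). The background of calls was 23.6% without and 26.5% with beads. The list had 12 positive and 12 negative differences without beads, and 14 and 10 with beads. The list as a group was not tested. Of 26 type I targets, 0 were higher and 20 lower without beads (0 and 13 with beads), with a median of -0.87 against -0.07 over all genes. Oasl1 (-1.34 ± 0.12 SE) and Oas1a (-1.18 ± 0.12 SE), of the antiviral oligoadenylate synthetase family, had the smallest p of them. The 8 GBPs and IRGs had a median of -0.19 in the same comparison. With beads in Gr1hi cells, 0 of 24 and 0 of 26 of these targets were called. At an unadjusted p under 0.05 limma gave 4 of 24 and 11 of 26, against 9.93% of all genes. The medians were -0.02 and -0.38, and 12 of 24 and 23 of 26 differences were negative.

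Of 10 measured inflammasome genes, 0 were called with beads in Gr1hi cells and 0 had an unadjusted p under 0.05 in limma. Between subsets without beads, Gsdmd, the pore-forming gasdermin (0.77 ± 0.09 SE), and Il1b (2.71 ± 0.21 SE) were higher in Gr1lo cells, and the adaptor Pycard (-1.04 ± 0.15 SE), Casp8 and Il18 lower. Of 14 genes of autophagy conjugation, which GBPs and IRGs need to reach vacuoles, 0 were called with beads in Gr1hi cells (1 at an unadjusted p under 0.05 in limma, Sqstm1 at 0.54), and 4 were higher and 1 lower in Gr1lo cells without beads. Of 11 dynamin-like GTPases outside the family, 0 were called with beads in Gr1hi cells (2 at an unadjusted p under 0.05 in limma). In Gr1lo cells without beads, 0 of them were higher and 3 lower, among them Mx1, an interferon-induced antiviral GTPase (-1.26 ± 0.21 SE). For these 3 lists, the share of all genes called between subsets without beads was 23.6%.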

How the data were processed

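The authors deposited log2 expression values for 45101 probe sets and 8 arrays, normalised with RMA and compared with limma per the submitters' processing notes; these were used as deposited. Per the labels' protocols, RNA of sorted cells was extracted with TRIzol and RNeasy, amplified and labelled with biotin. The notes name no tool version. For each of 18193 genes the brightest probe set with 1 symbol stood for the gene (34945 probe sets; platform annotation, symbols checked against RefSeq GRCm38.p6). As background, 114 chemosensory receptor and keratin-associated protein genes were taken, and the level that 95% of them stayed under (by mean) was used. Linear models with 4 group means were fitted across all genes to all arrays in limma 3.58.1 (R 4.3.3) with eBayes and Benjamini-Hochberg correction; called means an adjusted p under 0.05, two-sided. SE is the moderated standard error. The fit was tested on simulated data. The number of arrays limits precision, and p-values measure only the spread between these samples. The members and gene lists were chosen with earlier results of these data known. All members are named; of each list, genes with a call or the smallest p, and the 5 genes most correlated with Gbp8. Gbp2b, Ifng, Irf1, Irgm2 and Ifi47 are also described by array, picked after their values were seen. Near-identical GBP genes can share probes. Alternatives left out dim genes, averaged or tested all probe sets, fitted the compared arrays alone, changed the moderation, weights or scaling, added a replicate block, and left out each array.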

Additional observations from a re-analysis of the deposited data

How the results depend on the processing

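The Gbp8 difference with beads in Gr1lo cells stayed between 1.41 and 1.97 log2 units over its alternatives. Leaving out genes under the background level removed Gbp6, Gbp8 and Iigp1 from the fit. Then 0 members were called with beads in Gr1hi cells, 1 between subsets without beads (Gbp7) and 1 with beads (Gbp2). The member counts that follow include Gbp8, which is a description wherever Gr1lo arrays enter. In the sections above Gbp8 is left out of the counts between subsets. Members are not counted for beads in Gr1lo cells, a description. The tested members that lost a call without 1 array are named above. For the difference of bead effects 0 members were called under every setting run, and it was not fitted with fewer groups. The labels do not say what a replicate number shares. Differences between array 1 and array 2 correlated across 8788 genes at 0.60 within Gr1hi, 0.37 within Gr1lo and 0.04 to 0.09 between subsets. With the replicate block, 1, 4, 3 and 0 members were called in the order beads in Gr1hi, subsets without beads, subsets with beads and difference of bead effects. A replicate block within each subset, chosen after seeing the data, called 1, 4, 5 and 0. Both added Irgm1 without beads and Igtp with beads, and the block within subsets also Gbp3 and Gbp7 with beads. Over all genes, beads in Gr1hi and in Gr1lo gave 45 and 41 calls, against 121 and 127 with trended robust moderation, 104 and 29 with array weights, 102 and 106 with the block within subsets and 48 and 12 with the compared arrays alone. Leaving out 1 array gave 0 to 58 calls for beads in Gr1hi (0 to 6 without a Gr1hi array) and 17 to 354 for beads in Gr1lo. Signs turned in 26 of 697 values, 12 of them in tested comparisons and 14 in descriptions, for members not called there. Among the descriptions, over all alternatives with beads in Gr1lo, Gbp2 ran from -0.217 to 0.208, Gbp7 from -0.5075 to 0.4125, Igtp from -0.1385 to 0.3555 and Iigp1 from -0.212 to 0.09, and the difference of bead effects of Gbp8 (0.18) fell as low as -0.1025. Igtp between subsets without beads (-0.02) turned to 0.0115 with median centring and 0.0027 with cyclic loess. Leaving out 1 array moved Gbp6 with beads in Gr1hi from -0.236 to 0.045. Between subsets without beads it moved Gbp3 from -0.624 to 0.325 and Igtp from -0.2405 to 0.2015. With beads it moved Irgm1 from -0.243 to 0.117 and Iigp1 from -0.276 to 0.026. For the difference of bead effects it moved Gbp3 from -0.887 to 0.062, Gbp7 from -0.1525 to 0.7675 and Iigp1 from -0.042 to 0.26. Beyond the smaller numbers of genes or arrays, the cause was not tested. Scaling moved the median of all genes by at most 0.07. With 2 arrays a group and 3 members under background, small differences were not detectable.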
